A study of Mus musculus with 32 samples.

Results

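DNA replication and S phase genes are described here as a set of 51 mouse genes, chosen by name for what their proteins do at origins and forks, out of 43345 mouse genes in each deposited table. The rule uses no measured value, but the members were chosen with earlier results of these data known. All 51 passed the filter on low counts in both cell systems, so each statement below on the set covers every member.

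The data are 32 RNA sequencing libraries of mouse B cells that differ in Elof1, which encodes an elongation factor bound to RNA polymerase II. In the first system, CH12F3, a mouse B lymphoma line, the cells were Elof1-KO and carried either added ELOF1 (labelled +ELOF1) or a vector (labelled +Vector). They had been stimulated with α-CD40, IL4 and TGF-β for 1.5 days (4 libraries of each genotype), 3 days (2 of each) or 7 days (2 of each). The deletion is thus shared by both CH12F3 groups, and the labels do not say whether the line is 1 clone. In the second system, spleen B cells that were Elof1-cKO or wild-type (WT) received IL4 together with LPS, for 2.5 days (5 libraries of each) or 3.5 days (3 of each). The labels name neither the Cre driver, the age nor the number of mice. Nothing in the labels says that replicates came from separate cultures or animals, so p-values measure the spread between these libraries, which may be technical.

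Replication of a genome starts in G1, when the origin recognition complex, Cdc6 and Cdt1 load the ring of Mcm2 to Mcm7 onto DNA. In S phase, Cdc45 and the GINS proteins turn that ring into a moving helicase, polymerase α with its primase starts each strand, polymerases ε and δ extend it, and the sliding clamp PCNA holds the polymerase in place. Most of these genes are switched on at the G1 to S transition by E2F factors, and activated B cells, among the fastest dividing cells of the body, express them strongly.

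Libraries held 7112130 to 15550229 mouse counts in CH12F3 and 9807560 to 16359477 in spleen. Their library numbers in the labels fall into 2 series. Between the series, 25 of 51 members (49% of members, against 40.3% of all genes tested) differed in spleen and 16 of 51 (31.4%, against 38.5%) in CH12F3. The series was therefore a term of the main fit in each system. Elof1 stood at 140 to 681 CPM (a gene's count divided by the scaled library size) in the +ELOF1 libraries and at 0.966 to 5.49 CPM in the +Vector libraries. The +ELOF1 level was uneven, at 681, 622, 392 and 173 CPM in libraries 1 to 4 of day 1.5. No CH12F3 library is labelled wild-type, so Elof1 cannot be set against a normal level there. In spleen it was 11 to 55.1 CPM in WT and 1.27 to 7.65 CPM in Elof1-cKO libraries, so the targeted gene was low in every library labelled deficient. The 7 B cell markers were present in all groups, summing to 917 to 1510 CPM in CH12F3 and 2860 to 4740 CPM in spleen. In bulk samples, fewer cells in S phase and less RNA per S phase cell cannot be told apart.

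Promoters of the 4 members that passed the test between spleen genotypes at day 2.5 (below) are printed here with that of Pold1, the member with the smallest adjusted p across days. They are RefSeq windows of GRCm38.p6, the build family of mm10, from 250 bases before to 50 bases after the start site, and a window was given for 42 of the 51 members. Capitals mark, on either strand, 4 versions of the 7-base core bound by E2F factors, namely TTCCCGC, then also TTGGCGC, then also TTCGCGC, and lastly TTGCCGC. Matches that overlap are counted separately. Cdc6 lies on the plus strand at chr11:98907901-98908200, Uhrf1 on the plus strand at chr17:56303087-56303386, Slbp on the minus strand at chr5:33652525-33652824, Pola1 on the minus strand at chrX:93632106-93632405 and Pold1 on the minus strand at chr7:44548766-44549065.
Cdc6: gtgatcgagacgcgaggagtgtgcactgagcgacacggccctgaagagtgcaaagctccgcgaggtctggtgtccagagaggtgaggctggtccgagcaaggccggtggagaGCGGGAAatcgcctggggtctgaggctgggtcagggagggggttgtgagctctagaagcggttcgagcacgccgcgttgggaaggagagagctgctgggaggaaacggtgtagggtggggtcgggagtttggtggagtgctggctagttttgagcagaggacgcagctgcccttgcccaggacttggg
Uhrf1: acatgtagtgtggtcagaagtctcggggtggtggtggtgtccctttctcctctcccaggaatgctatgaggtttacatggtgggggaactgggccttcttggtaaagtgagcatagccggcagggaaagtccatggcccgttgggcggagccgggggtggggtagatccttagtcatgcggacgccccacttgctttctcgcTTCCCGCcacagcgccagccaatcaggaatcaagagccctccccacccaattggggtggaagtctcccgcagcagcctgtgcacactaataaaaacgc
Slbp: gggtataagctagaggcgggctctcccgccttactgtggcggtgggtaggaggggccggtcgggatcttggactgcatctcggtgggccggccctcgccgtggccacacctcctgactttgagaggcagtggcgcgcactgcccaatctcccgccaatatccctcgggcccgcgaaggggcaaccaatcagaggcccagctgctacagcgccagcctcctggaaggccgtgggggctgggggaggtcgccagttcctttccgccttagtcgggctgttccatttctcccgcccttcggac
Pola1: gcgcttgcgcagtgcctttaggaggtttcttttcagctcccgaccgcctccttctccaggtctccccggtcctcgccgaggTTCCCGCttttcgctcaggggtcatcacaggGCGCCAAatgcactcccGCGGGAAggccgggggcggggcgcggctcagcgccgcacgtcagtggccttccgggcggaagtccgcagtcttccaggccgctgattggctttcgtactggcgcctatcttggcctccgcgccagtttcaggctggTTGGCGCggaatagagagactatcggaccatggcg
Pold1: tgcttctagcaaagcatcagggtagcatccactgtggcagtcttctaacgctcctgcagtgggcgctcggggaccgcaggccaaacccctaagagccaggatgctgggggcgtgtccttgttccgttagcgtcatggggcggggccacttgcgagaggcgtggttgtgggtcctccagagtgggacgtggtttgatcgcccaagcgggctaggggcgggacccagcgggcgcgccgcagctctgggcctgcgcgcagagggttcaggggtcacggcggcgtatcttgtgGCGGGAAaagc

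At least 1 such match stood in 25 of the 42 windows (59.5%), against 9.57% of all 32851 RefSeq promoters and 17.3% of the 10852 promoters of genes tested in both systems. At least 2 matches stood in 11 members, against 1.18% of all promoters. Of the sequences above, Pola1 held 4 matches, Cdc6, Uhrf1 and Pold1 held 1 each, and Slbp held none. Licensing genes were matched in 7 of 9 windows and polymerase and primase genes in 5 of 7. A match is a description of letters, and its absence says nothing of a factor. The members that rose and the member that fell between genotypes thus both include windows with matches.

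Expression per length is given in RPKM, CPM divided by the summed exon length in kilobases. In spleen the most abundant members were Pcna, the sliding clamp, at 165 ± 32.2 RPKM (mean ± SD of 16 libraries), and Mcm5, a subunit of the helicase ring, at 164 ± 29.5. Mcm3, of the same ring, followed at 143 ± 14, and Uhrf1, which carries DNA methylation through replication, at 141 ± 20.5. Rrm2, the small subunit of ribonucleotide reductase, stood at 129 ± 16.7 RPKM. The ranges of these 5 overlapped one another. At the low end in spleen were Prim2, the large primase subunit, at 6.51 RPKM, Ccne2, a cyclin E, at 6.87 and Gins3 at 7.21. In CH12F3 the order was led by Uhrf1 at 116 RPKM (101 to 136), Mcm5 at 109 (72.1 to 142) and Pold2, a polymerase δ subunit, at 96.8 (56.6 to 134), and Ccne2 was lowest at 6.02 (3.11 to 9.69).

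**Figure D1:**
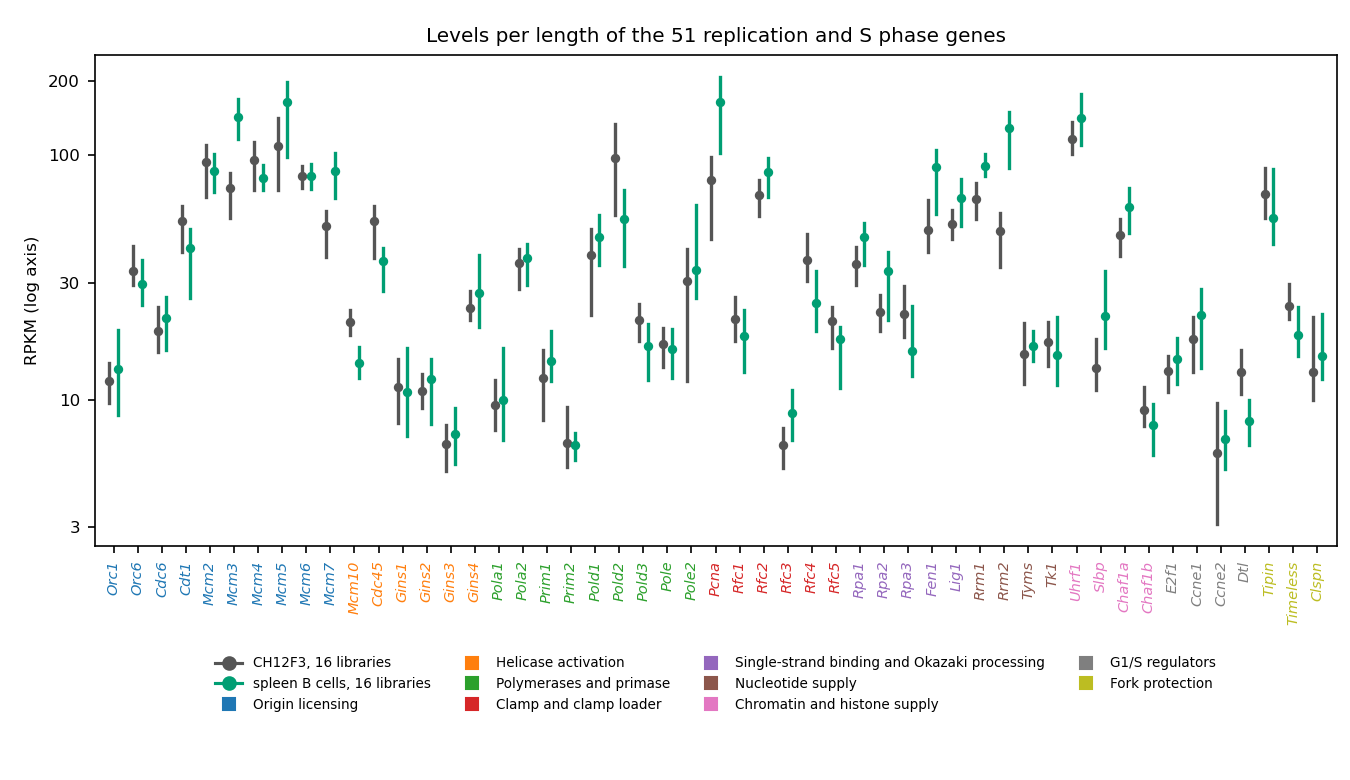
Level per length (RPKM, log axis) of each of the 51 members, with the mean as a point and the lowest to highest of 16 libraries as a line, for CH12F3 (grey) and spleen B cells (green). Gene names are coloured by role. Rrm2 lies at 34.8 to 57.8 RPKM in CH12F3 and 88.3 to 149 in spleen.

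The systems differ in cells, stimulus and days, and their tables were scaled separately, so their levels are set side by side with no test. Rrm2 was 2.65 times as high in the mean of the spleen libraries as in CH12F3, Pcna 2.08 times and Mcm3 1.95 times. Every spleen library exceeded every CH12F3 library for 5 members (Rrm2, Pcna, Mcm3, Mcm7 and Rrm1), and every spleen library fell below for 2, Dtl, which targets Cdt1 for destruction, and Mcm10, an initiation factor. These are 9.8% and 3.92% of the members, against 7% and 12.7% of the 12258 genes tested in both systems. The ranges of the other 44 members overlapped between the systems.

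The comparison of Elof1-cKO with WT spleen B cells at day 2.5 asked whether loss of ELOF1 changes RNA in stimulated primary cells. Of the replication genes, 3 rose and 1 fell in Elof1-cKO cells. Cdc6, which loads the helicase ring, Uhrf1, and Slbp, which binds the end of histone messages, rose by 1.2- to 1.27-fold. Pola1, the catalytic subunit of the polymerase that starts each new strand, fell to 0.772-fold. The 4 of 51 (7.84%) stood against 693 of 13367 genes tested, 5.18% called, with 2.82% called higher and 2.36% called lower, so the share of members is near that of all genes. The members' median log2 fold change was 0.015, beside 0.0042 over all genes.

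Pola1 is on chromosome X at 93304767 to 93632155 (mm10, minus strand). In WT libraries 1 to 5 it was measured at 98.8, 93.6, 97.1, 124 and 144 CPM, and in Elof1-cKO libraries 1 to 5 at 74.1, 71.1, 71.7, 115 and 101 CPM. Replicates 4 and 5 belong to the first library series and were high in both genotypes, so the groups overlap as a whole, but within each series every Elof1-cKO library lay below every WT library. The log2 fold change was -0.37 ± 0.069 (SE, 86.7 ± 20.4 against 112 ± 21.8 CPM, mean ± SD, n = 5 each), with an edgeR adjusted p of 0.0051. In the second series alone it was -0.43 (adjusted p = 0.0021), in the first alone -0.33 with 2 libraries a group (adjusted p = 1), and over 17 alternatives the adjusted p ran from 1.3e-05 to 1 with 14 calls. The edgeR call also held with each of the 10 libraries left out in turn.

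Cdc6 (chromosome 11, 98907801 to 98923940) was at 118, 113, 102, 83.8 and 110 CPM in WT and at 131, 127, 131, 125 and 137 CPM in Elof1-cKO libraries. The lowest Elof1-cKO library was above the highest WT library, a separation in the higher direction that 1.5% of all genes showed, and Mcm4 was the other member with it. Its log2 fold change was 0.31 ± 0.08 (SE, 130 ± 4.77 against 105 ± 13.4 CPM, n = 5 each, edgeR adjusted p = 0.035).

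Uhrf1 (chromosome 17, 56303321 to 56323486) was at 626, 616, 632, 468 and 537 CPM in WT and at 755, 744, 659, 623 and 669 CPM in Elof1-cKO. The groups overlapped by 1 library, Elof1-cKO replicate 4. Its log2 fold change was 0.27 ± 0.07 (SE, n = 5 each, edgeR adjusted p = 0.037). Slbp (chromosome 5, 33634952 to 33652574) was at 86.7, 89.2, 84, 88.8 and 124 CPM in WT and 113, 116, 105, 117 and 150 CPM in Elof1-cKO libraries. Replicate 5 was the highest library of each genotype, and the WT one was the single WT library that overlapped the Elof1-cKO range. Its log2 fold change was 0.35 ± 0.09 (SE, n = 5 each, edgeR adjusted p = 0.034).

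**Figure D2:**
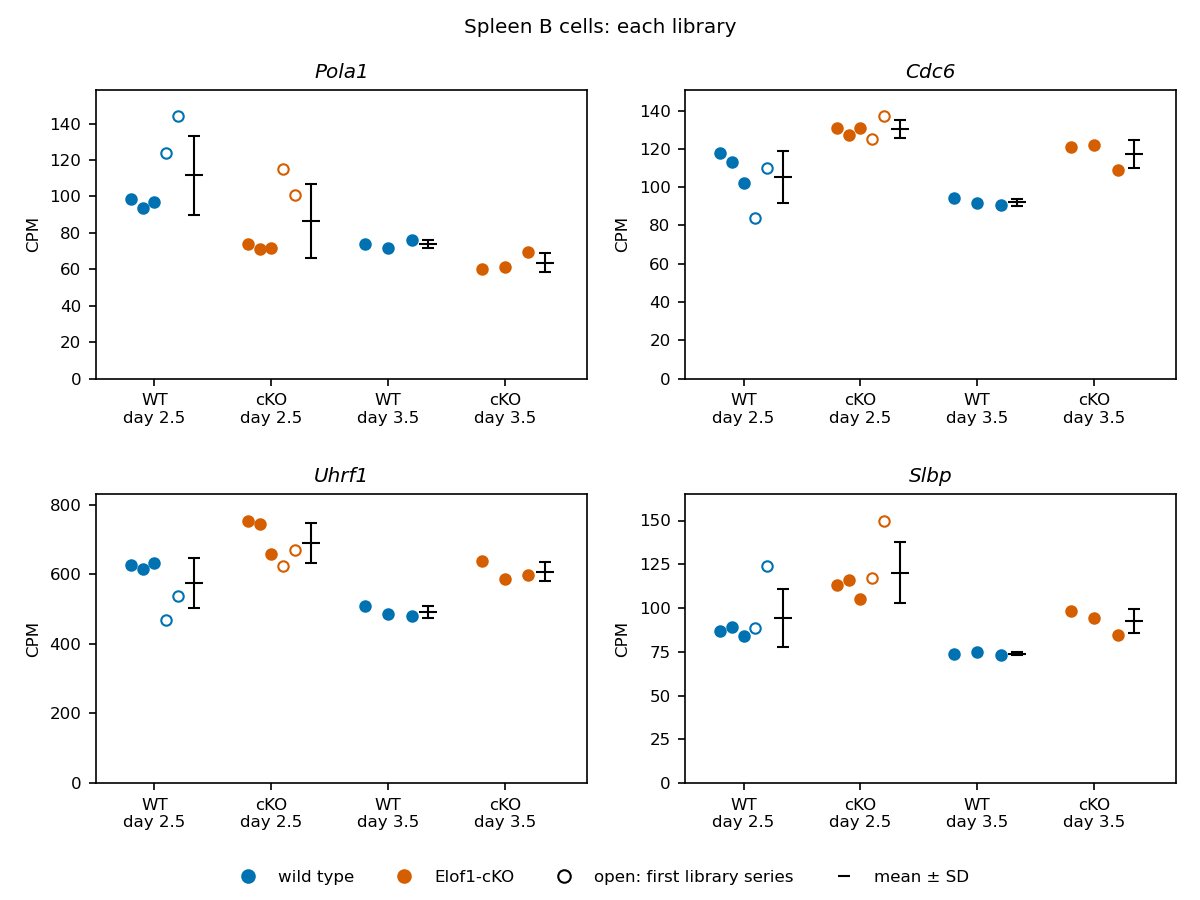
CPM of Pola1, Cdc6, Uhrf1 and Slbp in each spleen library by genotype and day (WT blue, Elof1-cKO orange, first library series as open points, mean ± SD as black bars). In both series at day 2.5 Pola1 is lower in Elof1-cKO, while Cdc6 is at 125 to 137 CPM in Elof1-cKO and 83.8 to 118 in WT.

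The 3 rises were lost in more settings than the fall of Pola1. The count of 4 dropped to 1 when WT replicate 2, 3 or 4 or Elof1-cKO replicate 1, 2 or 5 was left out, and to 2 without WT replicate 1 or Elof1-cKO replicate 3, and the count with no series term was 0. When libraries were scaled by the fly spike-in, the count was also 0, and the median of all genes moved to -0.14. Relative to that median Pola1 was at -0.39, Slbp at 0.33, Cdc6 at 0.29 and Uhrf1 at 0.26. Scaling shifts all genes nearly alike, so these relative values repeat the main estimates and are no separate result.

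By role, the other members at day 2.5 stayed under the threshold. Of the 10 licensing genes, which also include Orc1, Orc6, Cdt1 and the Mcm2 to Mcm7 ring, 9 had a positive estimate, with a median of 0.089 and Cdc6 as the member called. The 6 helicase activation genes had a median of -0.0059, the 9 polymerase and primase genes -0.045 with Pola1 called, and the 6 clamp and clamp loader genes -0.0066. Pola2, Prim1 and Prim2 encode the partners of Pola1 in the same complex, and their estimates were 0.08, 0.077 and -0.15, none past the test. The 5 single-strand binding and Okazaki fragment genes had a median of 0.13, the 3 fork protection genes, all positive, 0.099, and the 4 G1/S regulators 0.02, with none called. The 4 nucleotide supply genes had a median of 0.015, and the 4 chromatin and histone supply genes 0.13 with Uhrf1 and Slbp called. The 95% interval of every member excluded a 2-fold change in either direction, and 46 of 51 intervals lay within 0.5 on the log2 scale. The difference between the estimates of Pola1 and of its partners was not tested.

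**Figure D3:**
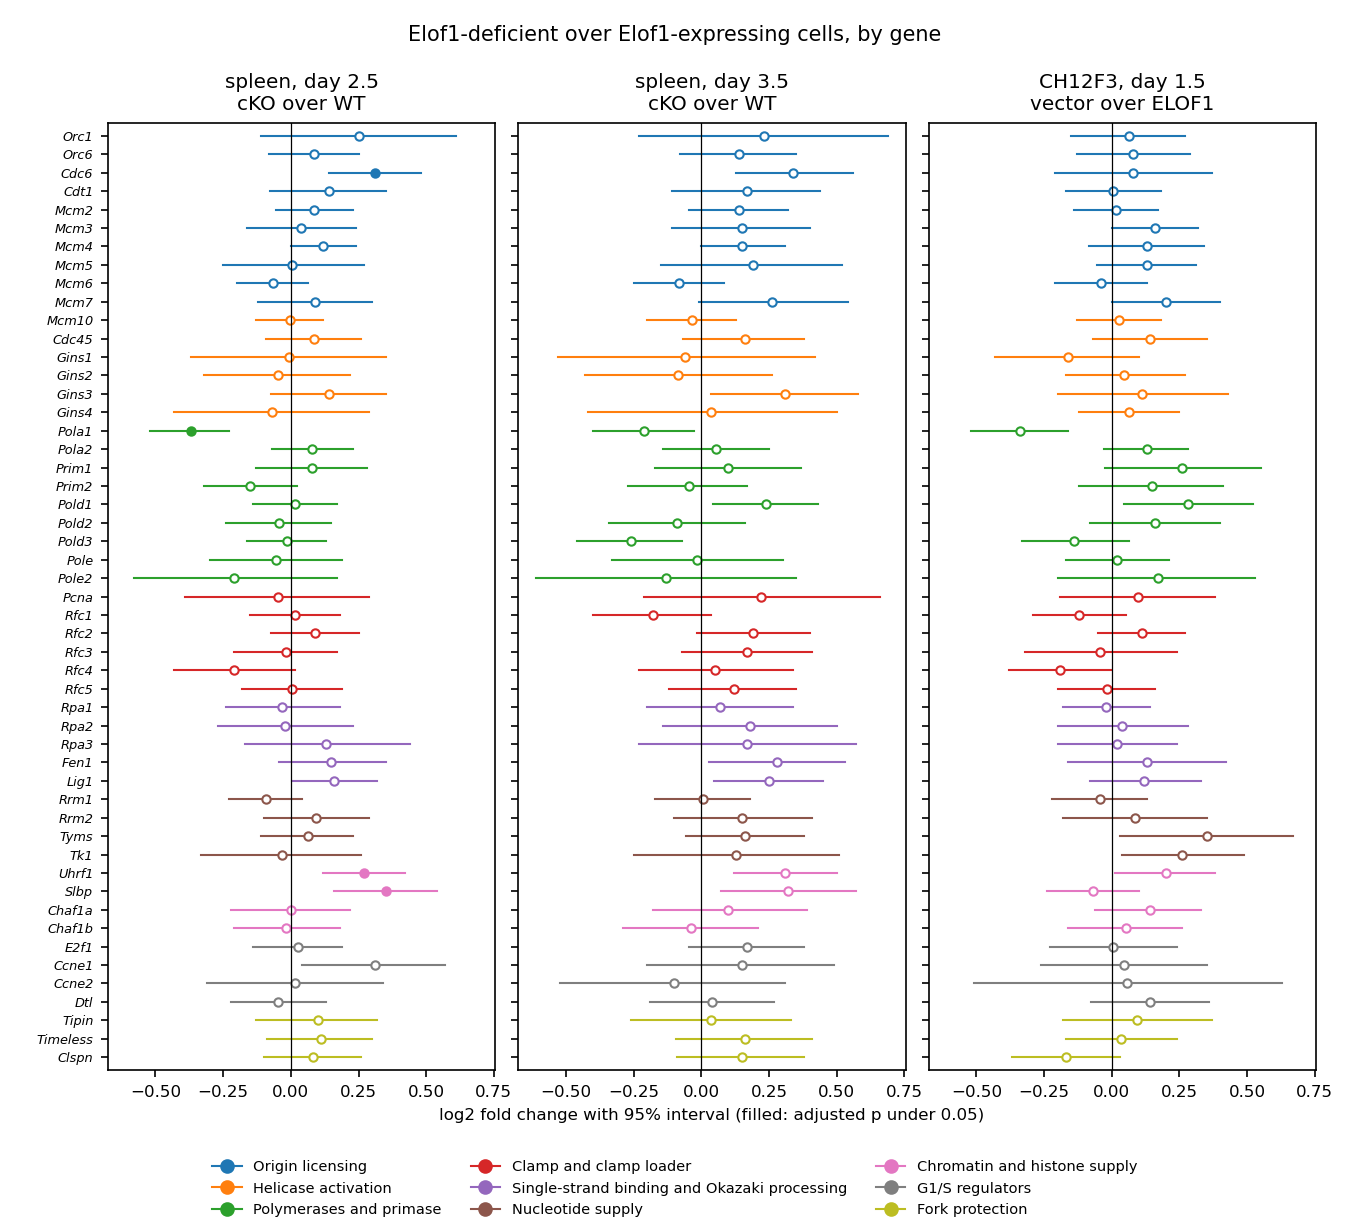
Log2 fold change of Elof1-deficient over Elof1-expressing cells with its 95% interval for each of the 51 members, coloured by role, in spleen at day 2.5 and day 3.5 and in CH12F3 at day 1.5. Filled points passed the edgeR test (adjusted p under 0.05), which was the case for 4 members, all at spleen day 2.5. Pola1 lies left of 0 in all panels.

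At day 3.5 no member passed the edgeR test between spleen genotypes (0 of 51, against 2.07% called among all genes), while 9 of 51 members had an unadjusted p under 0.05 (against 13.5% of all genes) and DESeq2 called 2, Cdc6 and Uhrf1 (4.54% of all genes). With 3 libraries a group, Cdc6 was at 94.1, 91.7 and 90.7 CPM in WT and 121, 122 and 109 CPM in Elof1-cKO, a log2 fold change of 0.34 (edgeR adjusted p = 0.11). Uhrf1 was at 510, 485 and 479 CPM in WT and 638, 587 and 599 CPM in Elof1-cKO (0.31, edgeR adjusted p = 0.1). The libraries of both genes were separated by genotype, as for 20 of the 51 members, a larger share than the 25.1% of all genes. Pola1 was at 73.9, 71.7 and 76.2 CPM in WT and 60.1, 61.3 and 69.8 CPM in Elof1-cKO (-0.21, edgeR adjusted p = 0.28), and Pold3, an accessory subunit of polymerase δ, at 68.1, 63.2 and 64.9 against 49.8, 59.1 and 54.5 CPM (-0.26, adjusted p = 0.17). These values have the sign of day 2.5.

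The members' median at day 3.5 was 0.14, with 38 of 51 estimates positive, beside a median of -0.0046 and 49.3% positive over all genes. Scaling by the fly spike-in turned it to -0.15, where the median of all genes was -0.29. A change of scaling shifts all genes nearly alike, so the distance of 0.14 between these medians is no separate result. The members' summed level was 7090 to 7330 CPM in the 3 WT libraries and 7800 to 8020 CPM in the 3 Elof1-cKO libraries, which did not overlap. At day 2.5 the sums were 6870 to 8680 and 7600 to 8970 CPM, which did. The change of the genotype difference from day 2.5 to day 3.5 was tested directly and passed for 0 of 51 members and 0 of 13367 genes with edgeR, with 2.08% of all genes at an unadjusted p under 0.05 and none called by DESeq2.

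Other genes of the same processes, taken from a list of 59 further replication and S phase genes, gave 2 higher and 0 lower calls at each day. At day 2.5 these were Samhd1, which degrades deoxynucleotides (0.41 ± 0.062, edgeR adjusted p = 0.0013), and E2f2 (0.33 ± 0.09, adjusted p = 0.043). At day 3.5 they were Samhd1 again (0.39 ± 0.08, adjusted p = 0.019) and Cdk2, the kinase of cyclin E (0.39 ± 0.086, adjusted p = 0.025). Of 30 G2 and mitosis genes, 1 rose at each day, Kif23, a motor of cytokinesis (0.3 ± 0.073 and 0.41 ± 0.094). Of all 13367 genes tested, 377 (2.82%) were called higher at day 2.5 and 153 at day 3.5. The counts of 2 of 59 and 1 of 30 at day 2.5 are near that share. At day 3.5 the same counts are larger shares than 153 of 13367, but rest on 2 genes and 1 gene, and the difference was not tested. Of 16 cyclin-dependent kinase inhibitor and p53 response genes, 15 were tested, and Cdkn2b (0.81 ± 0.21) and Btg2 (0.54 ± 0.14) rose at day 2.5 and Cdkn2d (0.69 ± 0.16) at day 3.5. These are 2 and 1 of 15, larger shares than 377 and 153 of 13367, on few genes.

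Across days in spleen, the set moved mainly downward. From day 2.5 to day 3.5, 5 of 51 members fell and none rose in WT cells, where 1.28% of all genes were called lower and 4.17% higher. The estimates were negative for 47 of 51 members (51% of all genes were above 0), with a median of -0.18 beside 0.006 over all genes. The later libraries were all below the earlier ones for 10 of 51 members, a larger share than the 5.41% of all genes. In Elof1-cKO cells 1 of 51 fell and none rose (0.688% called lower and 2.72% higher among all genes). There 44 of 51 estimates were negative (49.9% of all genes were above 0), with a median of -0.13 beside -0.00097. Of the 51 members, 11 were separated downward, a larger share than the 6.28% of all genes. Medians were negative in every role group in WT cells. They ran from -0.26 for chromatin and histone supply genes to -0.069 for G1/S regulators, of which Ccne2 alone was positive at 0.16. The WT libraries of day 2.5 also serve in the genotype comparison, so the values of these comparisons are not independent. The fit above takes no pairing across days into account. Deviations of libraries with the same number at both days gave r of -0.04 to 0.24, and those with different numbers -0.27 to 0.16. With that number as a block, 16 of 51 members fell in WT (31.4%) and 8 in Elof1-cKO (15.7%). Of all 13367 genes, 901 and 722 were called lower in that fit.

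Pold1, the catalytic subunit of polymerase δ (chromosome 7, 44532746 to 44548849), was at 257, 267, 276, 172 and 191 CPM in WT day 2.5 libraries and at 203, 188 and 183 CPM at day 3.5. All 3 day 3.5 libraries belong to the second series, whose day 2.5 libraries were at 257 to 276 CPM, while the first series gave 172 and 191 CPM. The log2 fold change was -0.46 ± 0.088 (SE, n = 3 against 5, edgeR adjusted p = 0.0069). In Elof1-cKO it was at 258, 277, 251, 181 and 203 CPM, then 230, 206 and 243 CPM (-0.23, adjusted p = 0.19).

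Mcm2, of the helicase ring, was at 311, 327, 328, 240 and 286 CPM in WT at day 2.5 and at 252, 254 and 237 CPM at day 3.5 (-0.35 ± 0.082, edgeR adjusted p = 0.021). In Elof1-cKO it went from 333, 341, 314, 291 and 300 CPM to 275, 264 and 280 CPM (-0.3 ± 0.083, adjusted p = 0.063), with no overlap. Lig1, the ligase that seals Okazaki fragments, was at 314, 294, 287, 246 and 296 CPM in WT and then at 237, 239 and 220 CPM (-0.34 ± 0.092, adjusted p = 0.039). Every later library of Lig1 was below every earlier one, in WT and also in Elof1-cKO (331, 341, 301, 291 and 341 CPM, then 278, 267 and 282 CPM, adjusted p = 0.16).

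Pola1 fell by 0.36 ± 0.085 in WT (edgeR adjusted p = 0.02) and Uhrf1 by 0.31 ± 0.086 (adjusted p = 0.044), from the library values given above. In Elof1-cKO their estimates were -0.2 (adjusted p = 0.24) and -0.27 (adjusted p = 0.11). Pold3 was the member that fell in Elof1-cKO cells, from 75.3, 68.8, 65.3, 79.3 and 78.7 CPM to 49.8, 59.1 and 54.5 CPM, with no overlap (-0.36 ± 0.086, adjusted p = 0.03). Its WT libraries were at 65.5, 74.2, 70.9, 76.2 and 84 CPM and then 68.1, 63.2 and 64.9 CPM (-0.1, adjusted p = 0.58). The difference of Pold3 between the genotypes was -0.25 ± 0.11 and did not pass the test of the difference (adjusted p = 1).

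**Figure D4:**
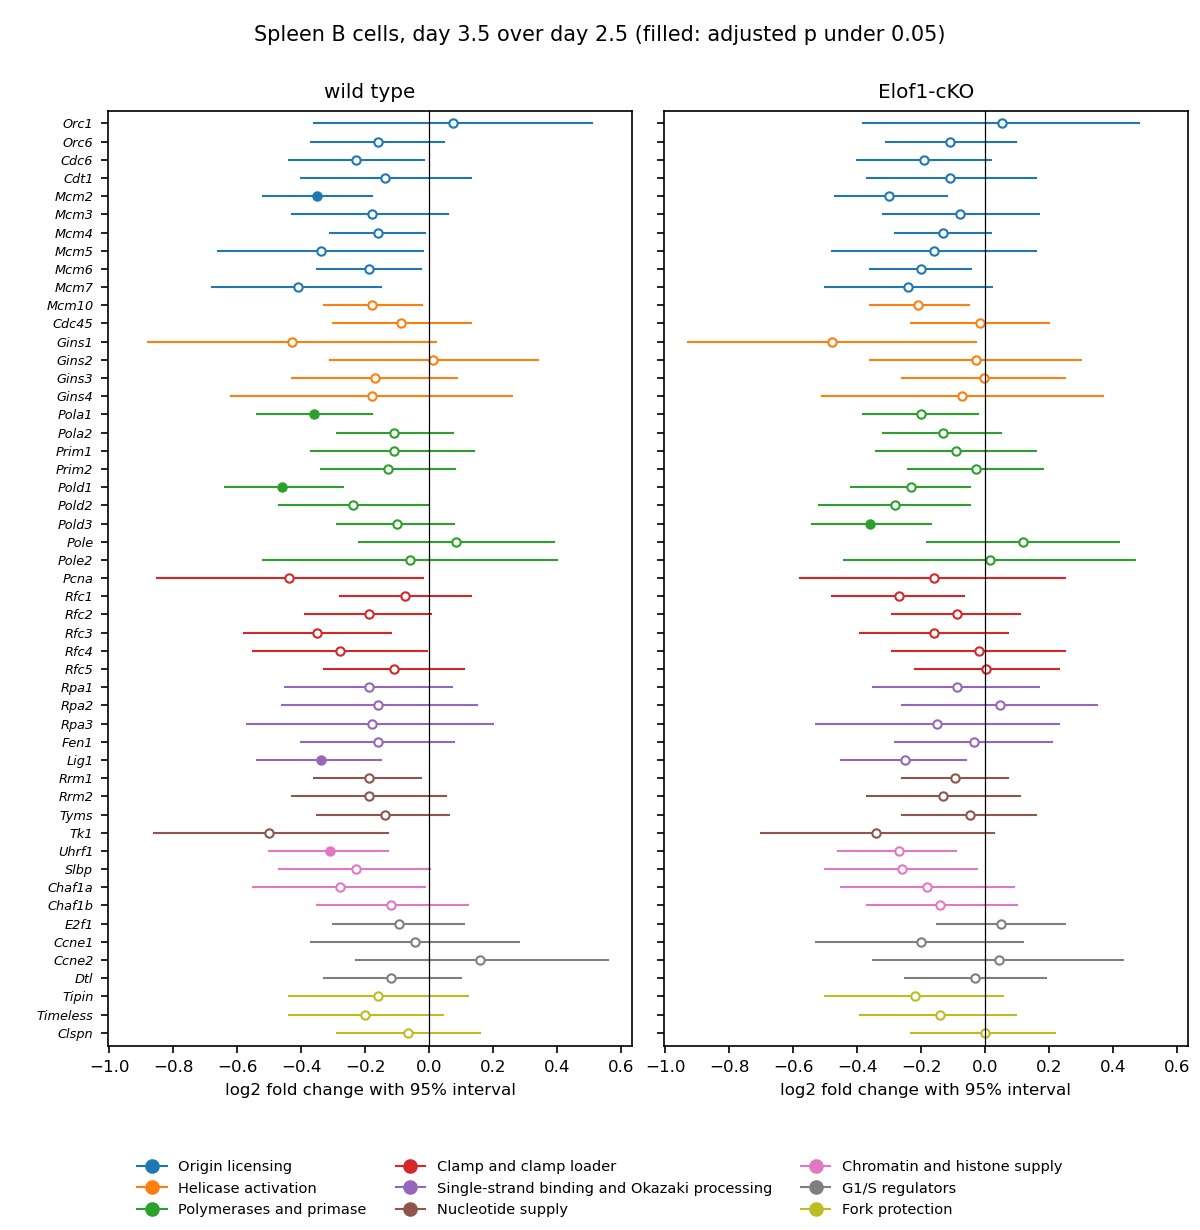
Log2 fold change from day 2.5 to day 3.5 with its 95% interval for each of the 51 members in WT and Elof1-cKO spleen B cells, coloured by role, with filled points for edgeR adjusted p under 0.05. Estimates lie below 0 for 47 members in WT and 44 in Elof1-cKO.

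The number of members called across days changed with the libraries of the first series, all of which are from day 2.5. In the second series alone, 14 of 51 members fell in WT (27.5%, against 6.4% of all genes called lower) and 7 in Elof1-cKO (13.7%, against 4.49%). The 14 were Cdc6, Mcm2, Mcm5, Mcm7, Pola1, Pold1, Pcna, Rfc3, Lig1, Tk1, Uhrf1, Slbp, Chaf1a and Timeless, with the largest falls for Tk1, thymidine kinase (-0.48), Pold1 (-0.47) and Pcna (-0.45). The 7 were Mcm2, Mcm6, Pold3, Rfc1, Tk1, Uhrf1 and Slbp. In the fit over both series, Tk1 had the largest estimate in WT, -0.5 ± 0.17, and missed the threshold (adjusted p = 0.12). Its first-series libraries stood apart, at 113 and 61.5 CPM beside 86 to 92.5 CPM in the second series. Pold1 was the member called in WT with any of the 8 libraries left out.

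Leaving out 1 library moved the WT count of 5 to 1 (day 2.5 replicate 3, or day 3.5 replicate 1, 2 or 3), 2 (day 2.5 replicate 1 or 2), or 8 (day 2.5 replicate 4). The Elof1-cKO count of 1 went to 0 without day 2.5 replicate 1 or 2 or day 3.5 replicate 1 or 3. With fly scaling no member was called in either genotype, while the medians stayed negative, at -0.26 in WT and -0.34 in Elof1-cKO. Relative to the shift of all genes they were -0.18 and -0.12, which repeats the main medians by construction.

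Members of each role that stand for the set without a call are given here by library, in the order WT day 2.5, WT day 3.5, Elof1-cKO day 2.5, Elof1-cKO day 3.5. Among licensing genes, Orc1, the largest subunit of the origin recognition complex, was at 29.9, 43.2, 43.1, 59.1 and 36.8, then 44.5, 35.7 and 46.4, then 47.9, 52.6, 46.9, 66.9 and 37.2, then 49.4, 56.9 and 42 CPM. Cdt1, which brings the Mcm ring to the origin, was at 99.9, 86.2, 109, 77.9 and 56.8, then 95.5, 83.5 and 83.1, then 107, 106, 95.7, 90.6 and 69.5, then 99, 95 and 99.9 CPM. Mcm5 was at 660, 650, 670, 335 and 539, then 504, 554 and 476, then 658, 683, 570, 376 and 556, then 593, 551 and 602 CPM. Groups overlapped for all 3 in both genotype and both time comparisons, and the first-series replicates 4 and 5 were below the second series for Mcm5 and Cdt1 at day 2.5.

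Of the genes that build the moving helicase, Cdc45 was at 80.7, 94, 86.3, 77.4 and 62.7, then 77.7, 83.5 and 76.6, then 89.7, 90.2, 79.5, 89.4 and 74.8, then 87.1, 89.2 and 89.2 CPM in the same order. Gins2 was at 57.4, 51.2, 52.2, 32.5 and 49.7, then 53.4, 57.5 and 51.5, then 53.2, 59.6, 43.3, 33.4 and 45.8, then 58.2, 51.4 and 43.3 CPM. Cdc45 was separated by genotype at day 3.5, with an estimate of 0.16 (edgeR adjusted p = 0.61), and Gins2 overlapped in every comparison. Pole, the catalytic subunit of polymerase ε, was at 181, 175, 179, 214.9 and 145, then 193, 180 and 191, then 169, 164, 177, 216.81 and 136, then 175, 207 and 175 CPM. Its estimates across days were 0.084 in WT and 0.12 in Elof1-cKO, on the other side of 0 from those of Pold1.

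The clamp gene Pcna was at 459, 433, 500, 245 and 461, then 322, 351 and 342, then 438, 484, 388, 250 and 461, then 414, 377 and 395 CPM. Rfc3, a subunit of the clamp loader, was at 38.2, 36.9, 35.6, 26.7 and 25.3, then 26.6, 30 and 29.7, then 39.3, 37.7, 30.8, 27.9 and 24.7, then 35, 34 and 28.2 CPM. In WT both overlapped across days at first-series libraries, while all second-series libraries of day 2.5 were above those of day 3.5. Rpa2, of the complex that coats single strands, was at 119, 104, 115, 63.1 and 98.9, then 94.2, 99.7 and 97.4, then 111, 109, 85.6, 79.6 and 103, then 113, 104 and 113 CPM. Rrm2 was at 368, 412, 380, 245 and 336, then 311, 377 and 314, then 410, 406, 385, 291 and 358, then 375, 381 and 360 CPM. Tyms was at 115, 104, 98.3, 93.2 and 92.4, then 97.7, 88.3 and 87.6, then 105, 101, 93.9, 110 and 116, then 106, 96.9 and 103 CPM. None of these passed the test in spleen in the fit over both series without a block. Pcna and Rpa2 were separated by genotype at day 3.5, with every Elof1-cKO library above every WT library.

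Among regulators of entry into S phase, E2f1 was at 50.7, 49.4, 48.2, 36.7 and 37.3, then 48, 47.5 and 41, then 49.2, 52.1, 44.4, 40.2 and 39.2, then 56.1, 45.1 and 52.2 CPM. Ccne1, a cyclin E, was at 54.5, 60.9, 54, 35.9 and 66.1, then 48.8, 59.1 and 50.7, then 63.7, 66.5, 65.2, 64.9 and 75.3, then 61.1, 56 and 58.7 CPM. Its estimate between genotypes at day 2.5 was 0.31 ± 0.13 (edgeR adjusted p = 0.2), as large as that of Cdc6 with a larger error, and WT replicate 4 was its lowest library. Ccne2 was at 18.2, 25.7, 22.3, 21.7 and 30.2, then 24.9, 19.9 and 31.4, then 21, 23.7, 25.5, 20 and 28.8, then 25, 26 and 19.7 CPM. Dtl was at 115, 106, 111, 137 and 125, then 114, 89.4 and 107, then 116, 106, 108, 128 and 117, then 101, 122 and 95.8 CPM. Clspn, which links the fork to the checkpoint kinase, was at 98.6, 102, 102, 115 and 137, then 94.7, 87 and 95.6, then 101, 95.4, 98.4, 161 and 140, then 96, 117 and 93.4 CPM. Clspn was separated across days in WT with an estimate of -0.066 (edgeR adjusted p = 0.81), and its first-series libraries were the high ones.

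Other genes of the cell cycle moved over the same day. Of all genes, 1.28% were called lower and 4.17% higher in WT, and 0.688% and 2.72% in Elof1-cKO. Of 30 G2 and mitosis genes, 6 fell in WT (median -0.32), among them Plk1, a mitotic kinase (-0.47 ± 0.089, edgeR adjusted p = 0.0063), Birc5 (-0.37 ± 0.079, adjusted p = 0.014) and Aurkb (-0.4 ± 0.095, adjusted p = 0.022). In Elof1-cKO 2 fell, Plk1 (-0.47 ± 0.089) and Birc5 (-0.35 ± 0.078), with a median of -0.22. Of the 59 further replication genes, 1 fell in WT, Dut, which removes dUTP (-0.51 ± 0.12, adjusted p = 0.027), and none in Elof1-cKO, with medians of -0.14 and -0.12. Of the 15 cyclin-dependent kinase inhibitor and p53 response genes tested, 3 rose and 1 fell in WT, and 2 rose and none fell in Elof1-cKO, with medians of 0.22 and 0.15. Cdkn1a, which encodes the inhibitor p21, rose by 2.12 ± 0.23 in WT (adjusted p = 0.00018) and 1.96 ± 0.23 in Elof1-cKO (adjusted p = 0.00046), and Ccng1, another p53 target, by 0.67 ± 0.17 and 0.93 ± 0.17. Called in WT alone were Cdkn2a (0.87 ± 0.24, adjusted p = 0.049), which rose, and Cdkn2d (-0.6 ± 0.15, adjusted p = 0.029), which fell there and was the one higher in Elof1-cKO than in WT at day 3.5. The change of the genotype difference between days passed for none of the 15.

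The sum of the plasma cell markers rose over the same days, though not every marker did. The 5 markers, all detected, summed to 458 to 639 CPM in WT at day 2.5 and 739 to 1220 CPM at day 3.5, and to 425 to 623 and 741 to 944 CPM in Elof1-cKO. Jchain went from a mean of 83.9 to 332 CPM in WT and from 61.8 to 220 CPM in Elof1-cKO. Xbp1 went from 375 to 510 and from 405 to 530 CPM, and Sdc1 from 8.18 to 13.3 and from 8.34 to 16.9 CPM. Prdm1 went from 36.9 to 45.2 CPM in WT but from 46.7 to 45.4 CPM in Elof1-cKO. Tnfrsf17 was at 0.0869 CPM or less in all group means. The 9 T and NK cell markers summed to 1.55 to 4.13 CPM and then 13.6 to 16 CPM in WT. In Elof1-cKO they summed to 0.721 to 2.79 and then 7.08 to 8.91 CPM. Among them, Cd28 went from a mean of 1.3 to 13.9 CPM in WT and from 0.601 to 6.98 CPM in Elof1-cKO, while Cd3e, Cd3d and Cd3g stayed at 0.305 CPM or less in group means and Cd4 at 0 in all WT libraries of day 2.5 and all Elof1-cKO libraries. The part of plasma or other cells in the change of the replication genes was not tested.

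In CH12F3 cells the comparison of +Vector with +ELOF1 changed no member in the fit without pairing. The edgeR count was 0 of 51 at day 1.5 (1.15% of all genes called), 0 at day 3 (0.00704%) and 0 at day 7 (0.0352%), and 8, 0 and 0 members had an unadjusted p under 0.05 (13.4%, 4.15% and 5.7% of all genes). DESeq2 called 1 member at day 1.5, Pola1, and none at day 3 (0.0559% of all genes) or day 7 (0.137%). The medians were 0.065, 0.0073 and 0.015. With fly scaling they were -0.04, -0.18 and -0.13, where those of all genes were -0.078, -0.19 and -0.14. Libraries with the same replicate number deviated together at each day, so a paired fit, with that number as a block, is given beside this result. It called 4 members at day 1.5 (7.84%, against 8.6% of all genes), 0 at day 3 (0.246%) and 0 at day 7 (0.493%), so the members' share at day 1.5 is near that of all genes.

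Pola1 fell in that fit by 0.34 ± 0.074 (edgeR with the block, adjusted p = 0.0078). It was at 105, 102, 96.3 and 90.1 CPM in +ELOF1 libraries 1 to 4 and at 84.7, 80.5, 66.3 and 79.5 CPM in +Vector, with no overlap, a separation in the lower direction shown by 1.93% of all genes and by no other member. Without the block its adjusted p was 0.067, and with DESeq2 0.0072, where 1.56% of all genes were called lower. Over 15 alternatives it ran from 0.0072 to 0.65 with 2 calls. At day 3 it was at 81 and 83.9 CPM against 71.5 and 78.4 CPM, and at day 7 at 86.2 and 87.7 CPM against 65.9 and 80.4 CPM. These are the same direction as at day 1.5, without a call.

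The other 3 rose with the block, each in that 1 of 15 alternatives (adjusted p up to 1 in others). Pold1 was at 108, 154, 175 and 212.02 CPM in +ELOF1 and 138, 172, 241 and 242 CPM in +Vector (0.29 ± 0.066, adjusted p = 0.011, and 0.28 with adjusted p = 0.27 without the block). Tyms, the thymidylate synthase, was at 86.1, 72.7, 83.9 and 70.7 CPM against 125, 102, 94.9 and 80.1 CPM (0.34 ± 0.08, adjusted p = 0.012, and 0.32 as the adjusted p without the block). Tk1 was at 75.4, 79.6, 71 and 89.4 CPM against 88.9, 90.5, 91.7 and 108 CPM (0.27 ± 0.068, adjusted p = 0.021, and 0.29 as the adjusted p without the block). All 3 were higher in +Vector in 4 of 4 pairs, and the groups overlapped for each. Cdc6, Uhrf1 and Slbp, which rose in Elof1-cKO spleen cells, had CH12F3 estimates of 0.079, 0.2 and -0.071 at day 1.5 (adjusted p = 0.87, 0.33 and 0.79).

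**Figure D5:**
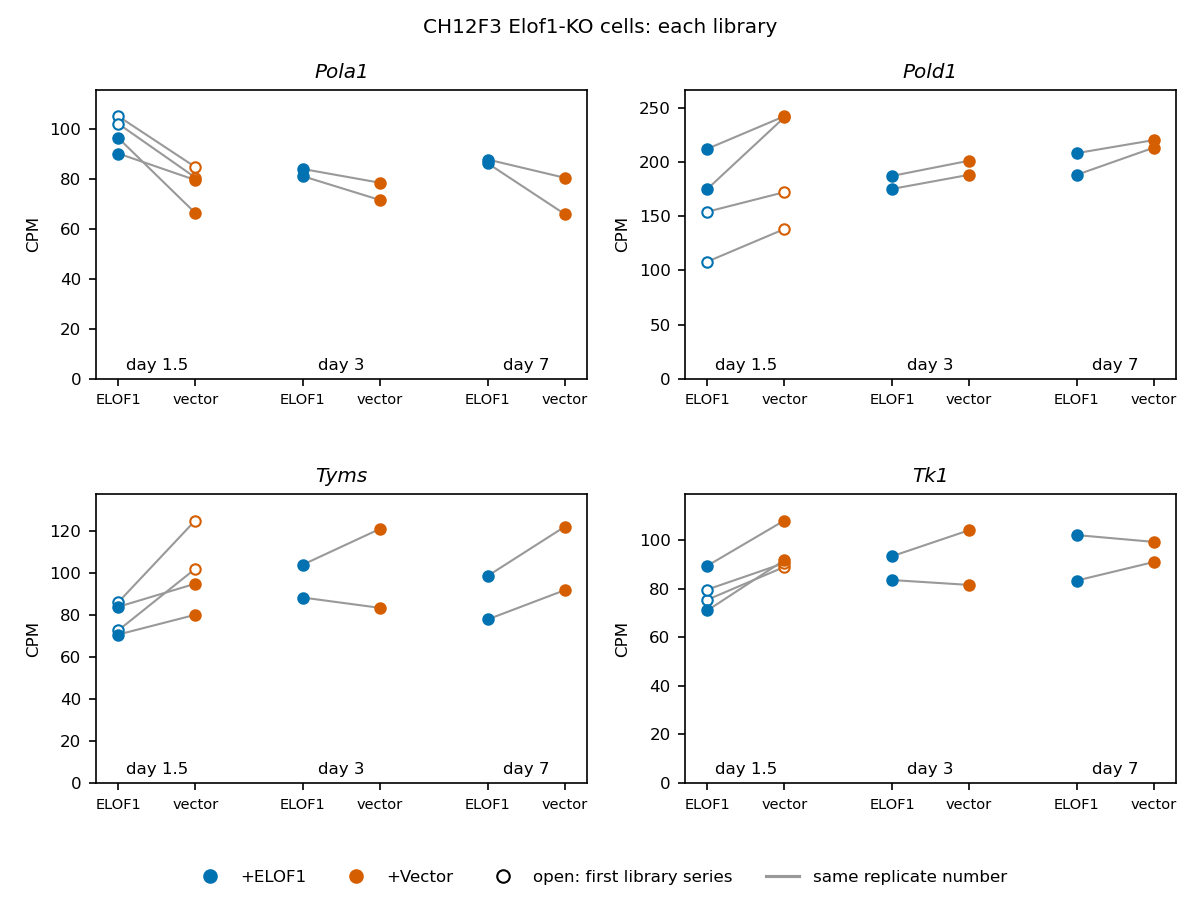
CPM of Pola1, Pold1, Tyms and Tk1 in each CH12F3 library by genotype and day, with lines joining +ELOF1 (blue) and +Vector (orange) libraries of the same replicate number and open points for the first library series. At day 1.5 Pola1 is lower and the other 3 are higher in +Vector in 4 of 4 pairs.

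The 95% interval of every member at day 1.5 excluded a 2-fold change, and at day 3 and day 7 those of 50 of 51 did, the exception being Ccne2, one of the least abundant. Across days no member was called in either genotype: 0 of 51 at day 3 and day 7 over day 1.5 in +ELOF1 (0.00704% and 0.0493% of all genes called) and in +Vector (0.00704% and 0.169%), and at an unadjusted p under 0.05 there were 1, 2, 1 and 1 (4.21%, 7.6%, 6.03% and 8.58% of all genes). DESeq2 called none of them, and neither fit took a pairing of libraries across days into account. The medians were -0.017, 0.11, -0.044 and 0.03. The day 7 estimates in +ELOF1 were positive for 42 of 51 members (48.8% of all genes), with Pola2, the second subunit of polymerase α, highest at 0.32. The change of the genotype difference passed for 0 of 51 members at day 3 and at day 7 and for 0 of 14201 genes, of which 1.22% and 1.92% had an unadjusted p under 0.05, and DESeq2 called none. The 5 plasma cell markers summed to 378 to 486 CPM in +ELOF1 and 148 to 420 CPM in +Vector at day 1.5, which overlapped. Of the 3 that could be tested, 1 was lower in +Vector at day 1.5, Prdm1 (-2.87 ± 0.62, edgeR adjusted p = 0.043), and none passed at day 3 or day 7. Their part was not tested.

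Over the 5 genotype comparisons, 16 members had a positive estimate in all and 2, Pola1 and Pold3, a negative estimate in all, while 33 were mixed. These were 31.4% and 3.92% of the members, beside 14.2% and 12.3% of the 12258 genes tested in both systems. With fly scaling 0 members were positive in all 5 and 24 were negative in all (47.1%, beside 1.51% and 41.8% of all genes). The 16 without fly scaling included 8 of the 10 licensing genes (all but Mcm5 and Mcm6), Fen1 and Lig1, which process Okazaki fragments, and Tyms. Most of these estimates passed no test. Pola1 also has the longest gene of the set, 327 kb from start to end, ahead of Prim2 and of Rfc1 at 73.8 kb. The Spearman correlation over the 51 members between gene length and log2 fold change was -0.18, -0.32 and -0.16 in CH12F3 at days 1.5, 3 and 7 and -0.26 and -0.41 in spleen at days 2.5 and 3.5, as a description over genes of the same libraries. The same correlation over all genes was not computed, and a part of gene length was not tested.

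Of the 51 members, 40 had the start, end and strand of the GENCODE M21 annotation, and 26 overlap another annotated gene. Mcm7 contains the miRNAs Mir25, Mir93 and Mir106b, and Pola1 overlaps Gm14780 on the other strand and Gm23557 on its own. Whether strand was used in counting is not stated, and reads of such neighbours may be part of a member's count.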

How the data were processed

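RNA was measured in 32 libraries, made with rRNA depletion and strand-specific NEB kits per the labels' protocols, with RNA of Drosophila S2 cells added in a fixed amount per cell. The authors deposited whole-number counts of reads for each gene, in 1 table for CH12F3 and 1 for spleen. The submitters' processing notes name Bowtie2, featureCounts, mm10 and dm6. Versions, gene release and use of strand: not given in the sources used here.

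Differences between groups of mouse counts come from edgeR 4.0.16 (quasi-likelihood, with R 4.3.3 and limma 3.58.1), 1 fit per system over all 16 libraries with terms for group and library series, TMM scaling and the filterByExpr filter (minimum count 10). This left 14201 CH12F3 and 13367 spleen genes. Adjusted p is Benjamini-Hochberg over all of them, and the threshold is 0.05. CPM and RPKM are after TMM scaling within a system. Tests were run on simulated counts first. DESeq2 1.42.0, fly scaling, no filter, no series term, each library left out, a replicate block and each series alone were the alternatives. The 51 members and all gene lists were chosen with earlier results of these data known.

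By the rule for named genes, values in each library are given for up to 6 called members a direction with the smallest adjusted p, for those with the largest and smallest fold change, and, where a comparison calls members, for 1 to 4 members that stand for each role. Other lists name up to 3 called genes. Elof1 checks the genotype. Members named for their level, as a partner of a called member or for a fit with a block or a series alone were chosen after their values were seen.

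Pairing was checked by correlating the deviations of libraries from their group means. In CH12F3 the 8 pairs of the same number at the same day gave r of 0.4 to 0.56, and pairs of different numbers -0.56 to -0.4. Within a series these groups hold 2 libraries each, whose deviations are exact opposites. The values for different numbers thus repeat those for the same number with the sign turned, and are no separate contrast. In spleen, same-number pairs gave -0.3 to 0.81 between genotypes and different numbers -0.81 to 0.37. Between days the 6 same-number pairs gave -0.04 to 0.24 and the 12 pairs of different numbers -0.27 to 0.16, so the ranges overlap. The value of 0.81 came from both first-series pairs at day 2.5, again with 2 libraries a group.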

Additional observations from a re-analysis of the deposited data

Results flagged for a closer look

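In 44 groups of values, over 10 named members and the summed level of all 51 in the groups of 4 or 5 libraries, 4 held a library far from the others by the gap to its neighbour over the range. Chance gives about 1 in 20 groups. Tk1 was 108 CPM in CH12F3 +Vector day 1.5 replicate 4, beside 88.9 to 91.7 CPM in the other 3. Slbp was 124 CPM in WT spleen day 2.5 replicate 5, beside 84 to 89.2 CPM, and 150 CPM in Elof1-cKO replicate 5, beside 105 to 117 CPM. The members' sum was 6870 CPM in WT spleen day 2.5 replicate 4, beside 8190 to 8680 CPM in the other 4, and without that library the number of members lower at day 3.5 in WT was 8 in place of 5. Over all 51 members and Elof1 in these groups, 16 sets of values (7.69%) held such a library.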

How the results depend on the processing

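The number of members called at CH12F3 day 1.5 was 0, and 1 with DESeq2 and 4 with the replicate block. At spleen day 2.5 it was 4, and 0 with fly scaling, 2 with no filter, 0 with no series term, 2 in the second series alone, 0 in the first alone, and 1 to 4 with 1 library left out. At spleen day 3.5 it was 0, and 2 with DESeq2 and 3 with the replicate block. Across days in WT spleen it was 5, and 0 with fly scaling, 0 with no series term, 10 with DESeq2, 16 with the replicate block, 14 in the second series alone, and 1 to 8 with 1 library left out. In Elof1-cKO it was 1, and 0 with fly scaling, 0 with no filter, 6 with DESeq2, 8 with the replicate block, 7 in the second series alone, and 0 to 1 with 1 library left out. The cause was not tested. Single series and left-out libraries hold fewer samples, yet the counts across days were higher in the second series alone (14 beside 5 in WT, 7 beside 1 in Elof1-cKO). In the other 9 comparisons the count was 0 in every alternative run. Of the members, Pola1, Pold1, Pold3, Tyms, Tk1, Slbp, Cdc6, Uhrf1, Mcm2 and Lig1 were recomputed one by one, each in 1 to 5 of the comparisons, and none of those log2 fold changes reversed its sign. In spleen, same-number libraries of the 2 genotypes deviated together in the first series (day 2.5 replicates 4 and 5, r = 0.81, 2 libraries a group). In the second series such pairs gave r of -0.3 to 0.16. The numbers thus pair a part of the spleen libraries between genotypes, and those block values are given here alone, with 5 members at day 2.5. For CH12F3 days no paired fit was run, since a block by replicate number would join first-series libraries of day 1.5 to second-series libraries. Within the second series, day 1.5 replicates 3 and 4 deviated with day 3 and day 7 replicates 1 and 2 (r of 0.48 to 0.6). A block on those libraries was not run.

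Spleen fly counts varied from 2.97% to 8.39% of mouse counts. The members' 95% intervals at day 2.5, from the main fit and before adjustment over all genes, had a median half-width of 0.19 on the log2 scale. The smallest change called there was 0.27 (Uhrf1), and Ccne1 at 0.31 was not called, so changes somewhat larger than the half-width could also be missed.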

Other observations

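Mcm5, Pcna and Rrm2 in spleen showed the libraries of the first series apart from each other. In WT day 2.5 replicates 4 and 5, Mcm5 was at 335 and 539 CPM, Pcna at 245 and 461 CPM and Rrm2 at 245 and 336 CPM. In Elof1-cKO replicates 4 and 5, Mcm5 was at 376 and 556 CPM, Pcna at 250 and 461 CPM and Rrm2 at 291 and 358 CPM. The second-series libraries of the same day were at 570 to 683, 388 to 500 and 368 to 412 CPM, so replicate 4 was the lowest library of its genotype for all 3 genes. These genes were chosen after their values were seen.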
